A study of Mus musculus with 2 samples.

Results

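The genes described here are 10 regulators of alternative splicing in striated muscle: Qk, Rbm24, Mbnl2, Rbm20, Mbnl1, Celf2, Rbfox2, Celf1, Ptbp1 and Rbfox1. They were chosen by gene name, not by their values, though with earlier results of these data known. They are 10 of the 15848 annotated genes with at least 1 read in either library. The data were long reads of cDNA made from the hearts of female mice of the F1 hybrid strain B6CASTF1/J (a cross of C57BL and CAST mice) at 2 months of age, with 2 µg of total RNA per library. The 2 libraries, replicate 1 and replicate 2, formed 1 untreated group, so every contrast was between genes, between transcript structures or between the libraries. The sample labels numbered the animals 3 and 4, but in the library text both came from animal 3, and a single donor identifier covered both. The number of animals was therefore not settled, and p-values between the libraries measure counting error in the reads alone.

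Splicing regulators of this kind bind short sequence elements in a pre-mRNA and change whether a nearby exon is kept or skipped. In the postnatal heart, muscleblind proteins (Mbnl) gain and CELF proteins lose influence as exons switch to their adult pattern. RBM20 and RBM24 act on transcripts of sarcomere and calcium-handling proteins, QKI (from Qk) and RBFOX proteins act on muscle and cytoskeletal exons, and PTBP1 represses many exons that differentiated cells include. Most of these genes are themselves alternatively spliced, often in exons that set where the protein resides in the cell or whether its RNA-binding domain is complete.

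Replicate 1 held 905154 reads and replicate 2 held 745375 reads, of which 859191 and 707758 fell on annotated genes. Levels are reads per 1000000 annotated-gene reads (CPM), and a single read stood for 1.16 CPM in replicate 1 and 1.41 CPM in replicate 2. A gene with no read could still reach 3.49 and 4.24 CPM, the levels of 3 reads. The labelled tissue matched its markers: the 6 cardiomyocyte markers summed to 44848 and 47436 CPM, while the 6 skeletal muscle markers summed to 3.49 and 4.24 CPM with Myh1, Myh2, Myh4 and Tnnt3 at 0. The 6 neuron markers summed to 9.31 and 4.24 CPM, with Syp, Elavl3 and Elavl4 at 0. The 4 fibroblast markers summed to 776 and 702 CPM, and the 2 red cell markers to 25535 and 23673 CPM. In whole tissue, fewer cells of a type and less RNA per cell cannot be told apart.

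Qk was the highest of the 10 genes and Rbfox1 the lowest, with a 44.8-fold span between their mean levels. Qk (chr17:10202601-10319854, minus strand), whose protein is an RNA-binding protein of the STAR family, had 380 and 369 reads, or 442 CPM in replicate 1 and 521 CPM in replicate 2 (mean 482 ± 55.9, SD, n = 2). It ranked 282 among all genes by mean CPM. Rbm24 (chr13:46418434-46431095, plus strand), a muscle-restricted RNA-binding protein, had 221 and 192 reads, or 257 CPM in replicate 1 and 271 CPM in replicate 2 (mean 264 ± 9.94). Mbnl2 (chr14:120275669-120431697, plus strand) had 203 and 193 reads, or 236 CPM in replicate 1 and 273 CPM in replicate 2 (mean 254 ± 25.8). The ranges of Rbm24 and Mbnl2 overlapped, so their order was not fixed by these libraries.

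Rbm20 (chr19:53677306-53867080, plus strand), whose human form is mutated in dilated cardiomyopathy, had 95 and 87 reads, or 111 CPM in replicate 1 and 123 CPM in replicate 2 (mean 117 ± 8.74, SD, n = 2). Mbnl1 (chr3:60472830-60629750, plus strand) had 43 and 60 reads, or 50.0 CPM in replicate 1 and 84.8 CPM in replicate 2 (mean 67.4 ± 24.6). Both genes lay below Mbnl2 and above the remaining 5 in each library. Celf2 (chr2:6539694-7509563, minus strand) had 36 and 19 reads, Rbfox2 (chr15:77078990-77307004, minus strand) 23 and 23, and Celf1 (chr2:90940382-91019497, plus strand) 23 and 17. Their mean levels of 34.4 ± 10.6, 29.6 ± 4.05 and 25.4 ± 1.94 CPM (SD, n = 2 each) did not separate, since Celf2 overlapped Rbfox2 and Rbfox2 overlapped Celf1. Ptbp1 (chr10:79854427-79864771, plus strand) had 16 and 9 reads and Rbfox1 (chr16:5885355-7411526, plus strand) had 10 and 7, at mean levels of 15.7 ± 4.18 and 10.8 ± 1.24 CPM.

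These levels count molecules and are not divided by length, and unannotated reads on the opposite strand of a gene are in none of them. Per kilobase of mean model length the order began with Rbm24 at 96.1 CPM per kilobase, then Qk at 73.4 and Mbnl2 at 60.1, and ended with Celf1 at 6.18 and Ptbp1 at 5.58. Rbfox1, whose models were the shortest on average, stood at 7.10 CPM per kilobase, above Celf1 and Ptbp1 on that scale alone. The order also depended on which models were counted. With annotated models only, CPM was taken over the reads on annotated models, 652698 in replicate 1 and 535492 in replicate 2. On that scale Rbm24 led at a mean of 258 CPM, Qk followed at 104 CPM, Rbm20 at 28.7 CPM and Mbnl2 at 24.7 CPM. Mbnl1 took place 9 at 2.47 CPM and Rbfox1 stayed lowest at 1.53 CPM. These values cannot be set beside the levels with all models. Rbm24 kept 170 of 221 reads in replicate 1 and 137 of 192 in replicate 2.

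**Figure D1:**
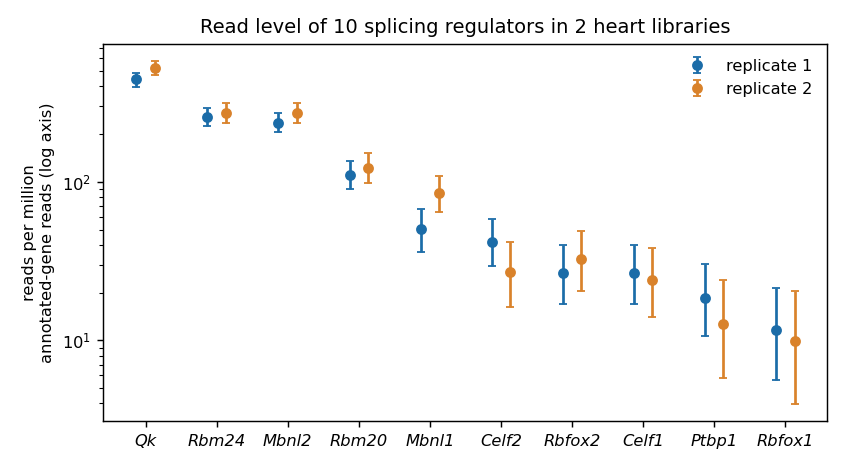
Level of each gene in CPM (log axis) in replicate 1 and replicate 2, with exact 95% Poisson intervals that cover counting error only. Qk stood at 442 and 521 CPM and Rbfox1 at 11.6 and 9.89 CPM, and the intervals of neighbouring low genes overlapped.

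None of the 10 genes passed the test between the libraries. All 10 had at least 10 reads and were tested by the two-sided exact binomial test with Benjamini-Hochberg adjustment over 9334 genes. Requiring a 2-fold difference beside an adjusted p below 0.05 called 0 of them, against 0.321% of all genes tested (0.171% higher and 0.15% lower in replicate 1). The adjusted p alone called 0 as well, against 1.15% of all genes. At an unadjusted p below 0.05 there were 2, Mbnl1 and Qk, against 8.53% of all genes. By edgeR's exact test with preset variation of 0.1 and 0.2, none of the 10 genes was called. No share over all genes is given for that test, and the shares above belong to the binomial test. Mbnl1 was lower in replicate 1, with a log2 ratio of replicate 1 over replicate 2 of -0.76 (fold 0.590, exact 95% interval 0.390 to 0.888, unadjusted p = 0.00972, adjusted p = 0.298, exact binomial test). Qk had a log2 ratio of -0.24 (fold 0.848, interval 0.733 to 0.982, unadjusted p = 0.0251, adjusted p = 0.471, exact binomial test). The median log2 ratio of the 10 genes was -0.12, beside -0.05 over all genes tested.

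Mbnl2 and Rbfox2 gave most reads of their families, and the balance passed the test between the libraries in 0 of 5 pairs (0 at an unadjusted p below 0.05, Fisher's exact test). In replicate 1, Mbnl1 supplied 17.5% of the Mbnl1 and Mbnl2 reads (Wilson 95% interval 13.2 to 22.7). In replicate 2 it supplied 23.7% (18.9 to 29.3), so Mbnl2 gave most muscleblind reads in both. Rbfox1 supplied 30.3% and 23.3% of the Rbfox1 and Rbfox2 reads. Celf1 supplied 39.0% and 47.2% of the Celf1 and Celf2 reads, with intervals that included equal shares in both libraries. Rbm24 and its paralog Rbm38 were near balance, with Rbm24 at 49.1% and 51.8%. Ptbp1 and Ptbp2, a paralog best known from neurons, were also near balance, with Ptbp1 at 55.2% and 47.4% of 29 and 19 reads. The adjusted p over the 5 pairs ran between 0.486 and 0.769.

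Among 52 other splicing regulators, 42 had reads, and 0 of 35 tested were called between the libraries by the exact binomial test, against 0.321% of all genes (3 at an unadjusted p below 0.05, against 8.53% of all genes). None of these 42 had a higher mean level than Qk or Rbm24, and 1, Rbm38, was above Mbnl2. Rbm38, at 267 CPM in replicate 1 and 253 CPM in replicate 2, was above Rbm24 in replicate 1 and below Mbnl2 in replicate 2. Its order beside these genes was therefore not fixed. The 5 highest were Rbm38 at 260 CPM, Rbm39 at 220, Pcbp1 at 187, Ewsr1 at 172 and Fxr2 at 168. Of the relatives of the 10 genes, Ptbp2 had 14.6 CPM and Ptbp3 4.32 CPM, Celf4, Celf5 and Rbfox3 had 1 read each in replicate 1 and none in replicate 2, and Mbnl3, Celf3 and Celf6 had no read in either. Among 41 genes with exons known as targets of these regulators, all 41 had reads and 0 of 39 tested were called by the exact binomial test (5 at an unadjusted p below 0.05), beside the same shares of all genes. With edgeR TMM factors or DESeq2 size factors, 1 target gene, Tpm1 (a tropomyosin of the thin filament), passed the adjusted p alone (0.0203 and 0.0278, exact binomial test, against a smallest adjusted p of 0.193 in the list without those factors), at a log2 ratio of 0.09 and 0.08, below the 2-fold minimum. Of 93 exons tested in 27 of these target genes, 0 were called in inclusion between the libraries by Fisher's exact test (2 at an unadjusted p below 0.05, against 2.82% of all exons tested).

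The reads of the 10 genes sat on unannotated transcript structures in a larger share than reads in general. The authors' models fall into classes: annotated, incomplete (part of a longer model), new combination (known splice sites joined in an unannotated way), new splice site, and genomic (overlapping the gene without fitting another class). The shares follow the authors' labels, which did not always match the annotation. For example, a Qk model with 8 and 18 reads was labelled a new combination but had an unannotated splice site. Annotated models took 29.8% and 24.4% of the reads of the 10 genes, against 76.0% and 75.7% of the reads of all annotated genes. New combinations took 24.5% and 26.2%, against 4.90% and 5.46% of all reads. Models with a new splice site took 16.4% and 18.5%, against 3.15% and 3.57%. Mbnl2 alone gave 180 of 257 and 171 of 256 of the new-combination reads in replicate 1 and replicate 2. Qk alone gave 153 of 172 and 152 of 181 of the reads with a new splice site. Most reads of the 10 genes in all classes together came from Qk, Rbm24 and Mbnl2, and the shares are described without a test.

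Each of the leading genes had its own class. In Mbnl2, 88.7% of reads in replicate 1 and 88.6% in replicate 2 were on new combinations, a share placing it at percentile 99.8 of 4651 genes. In Qk, 40.3% and 41.2% were on models with a new splice site (percentile 98.8). In Rbm20, 53.7% and 57.5% were on incomplete models (percentile 97.1), and Mbnl1 had 44.2% and 50.0% there. Rbm24 was the most annotated, at 76.9% and 71.4%, close to the share over all genes. Rbfox2 had 43.5% and 56.5% of its 23 reads per library on genomic models, which left few spliced reads to describe.

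**Figure D2:**
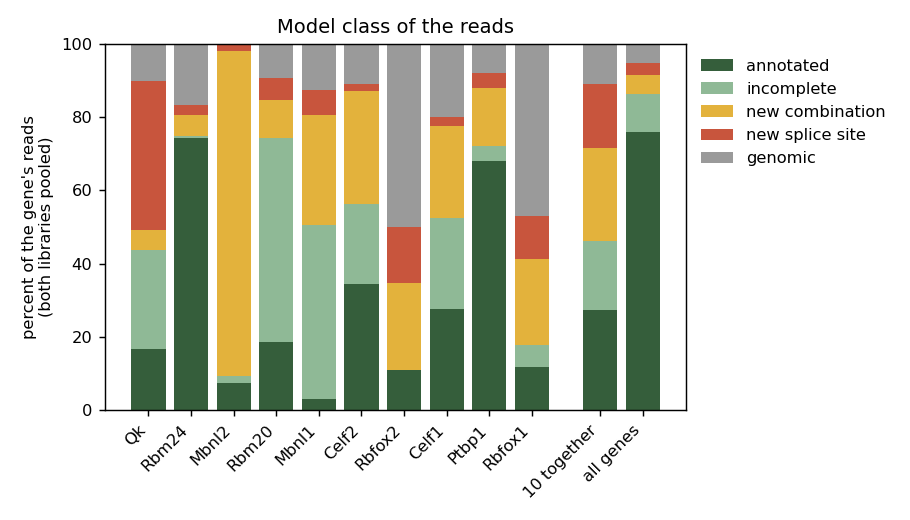
Share of each gene's reads (percent, both libraries pooled) on annotated, incomplete, new-combination, new-splice-site and genomic models, with the 10 genes together and all annotated genes at the right. Mbnl2 is almost wholly new combinations, Rbm24 and Ptbp1 mostly annotated, and the 10 genes together hold a lower share of annotated reads than all genes.

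Qk was spliced mainly at an acceptor that GENCODE M21 does not list. The annotated exon of 300 bases codes for the stretch behind the RNA-binding domain, and most reads began it 24 bases later, as an exon of 276 bases. The first 48 bases of the annotated exon (chr17:10216412-10216459, mm10, minus strand) are shown because the choice lies within them, with the bases left out by the later acceptor in capitals.
Qk exon start: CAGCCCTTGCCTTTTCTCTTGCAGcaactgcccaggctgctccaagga
The 24 bases ended in AG, as acceptors do, 18 of them were pyrimidines, and their length equals 8 codons. In replicate 1, the later acceptor was used by 256 of 331 reads (77.3%, Wilson 95% interval 72.5 to 81.5). In replicate 2, it was used by 273 of 333 (82.0%, interval 77.5 to 85.7). The annotated acceptor was used by 73 reads in replicate 1 and 58 in replicate 2, and an acceptor 3 bases into the exon by 2 and 2. Both libraries thus used the later acceptor for most Qk reads, and the intervals overlapped.

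Qk proteins of 341, 319 and 325 codons, named QKI-5, QKI-6 and QKI-7, differ in their ends and come from 3 terminal exons, of which the QKI-5 end holds a nuclear localization signal. The terminal exon of Qk-204 (341 codons) was used by 202 of 334 spliced reads in replicate 1 and 190 of 334 in replicate 2, or 60.5% and 56.9%. That of Qk-206 (319 codons) was used by 117 and 119 reads, or 35.0% and 35.6%, and that of Qk-201 (325 codons) by 12 and 21, or 3.59% and 6.29%. The order of the 3 ends was therefore the same in both libraries.

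The later acceptor made up a similar share with each end, with overlapping intervals. Over both libraries it was used in 306 of 389 reads with the end of Qk-204 (78.7%, Wilson 95% interval 74.3 to 82.4), in 192 of 236 with that of Qk-206 (81.4%, 75.9 to 85.8) and in 26 of 33 with that of Qk-201 (78.8%, 62.2 to 89.3). The leading model of Qk, with 8 exons, the 276-base exon and the end of Qk-204, had 145 and 147 reads. A 7-exon model with the 276-base exon and the end of Qk-206 had 86 and 98 reads and was classed as incomplete, although its structure ran over the whole of Qk-206. By their introns, 260 and 276 of the 334 spliced Qk reads in each library had a splice site outside the annotation, or 77.8% and 82.6%. The new-splice-site class held 153 and 152 reads, which are 40.3% and 41.2% of all 380 and 369 Qk reads. In reads, the class thus understated the use of unannotated sites. The fully annotated models Qk-204 and Qk-206 had 41 and 33 reads and 23 and 19 reads. The opposite strand of the gene carried 271 and 205 unannotated reads, of which 1 and 0 were spliced, and their part in the Qk values was not tested.

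**Figure D3:**
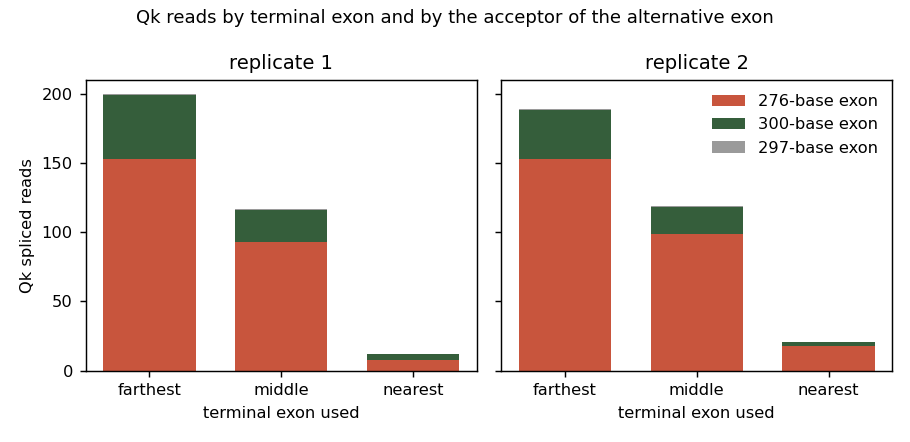
Spliced Qk reads by the terminal exon used (farthest from the promoter, that of Qk-204; middle, Qk-206; nearest, Qk-201) and by the start of the alternative exon, for each library. The 276-base exon makes up most of every bar, with 153 and 153 reads at the farthest end.

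Rbm24 had the simplest structure. The annotated 4-exon Rbm24-201, of 236 codons, took 165 of 184 spliced reads in replicate 1 and 130 of 160 in replicate 2, or 89.7% and 81.2%. That share differed at an unadjusted p of 0.0303 by Fisher's exact test but at an adjusted p of 1 over 3372 genes with a leading model to test. Of the 5 members that could be tested in this way, 0 were called, against 0.119% of all genes, and 1 had an unadjusted p below 0.05, against 4.36%. An added exon of 113 bases (chr13:46422276-46422388), annotated only in a non-coding transcript and not a multiple of 3 in length, was included in 12 of 182 reads in replicate 1 (6.59%) and 17 of 156 in replicate 2 (10.9%). The 5-exon new combination that holds it had 10 and 13 reads, and annotated models alone gave it in 4 of 307 reads.

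Most Rbm20 reads did not run through the whole gene. The full-length Rbm20-203, with 14 exons and 1199 codons, had 18 and 16 reads, or 22.2% and 20.5% of spliced reads. A 4-exon model that holds only the last exons, with its first exon of 640 bases, had 37 and 33 reads, or 45.7% and 42.3%. In both libraries the deposited start of that model was 53851177, the annotated edge of the 640-base exon. Models that began upstream of intron 11 held 97.5% of the 81 spliced reads in replicate 1 and 98.7% of the 78 in replicate 2, while for intron 10 these shares were 50.6% and 56.4%. The drop lay at the 640-base exon in both libraries.

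Among the spliced Rbm20 reads outside incomplete models, at least 2 starts were in use. Of 30 such reads in replicate 1 and 34 in replicate 2, 19 and 17 used the first donor of Rbm20-203. Single reads among them had the donor of a later exon first, such as 53851816. A donor at 53793446, whose exon is annotated in the 2-exon fragment Rbm20-202, came first in 7 and 13. Through that exon, 5 and 12 reads formed a 14-exon new combination with all later exons of Rbm20-203. A 13-exon incomplete model, with a first exon of 768 bases, had 5 and 4 reads. Rbm20 had no internal exon between 5% and 95% inclusion: of 14 with at least 10 informative reads, 12 were above 95% and 2 below 5%.

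Reach differed among the other genes with the most spliced reads. For Qk, Mbnl2 and Rbm24, 98.4%, 98.2% and 94.5% of spliced reads over both libraries had models beginning upstream of the first intron of the longest annotated coding form. For Mbnl1 this share was 52.7% (Wilson 95% interval 42.6 to 62.7), and for Rbm20 it was 25.2% (19.1 to 32.4), where reads that start at the exon inside intron 1 are not counted.

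**Figure D4:**
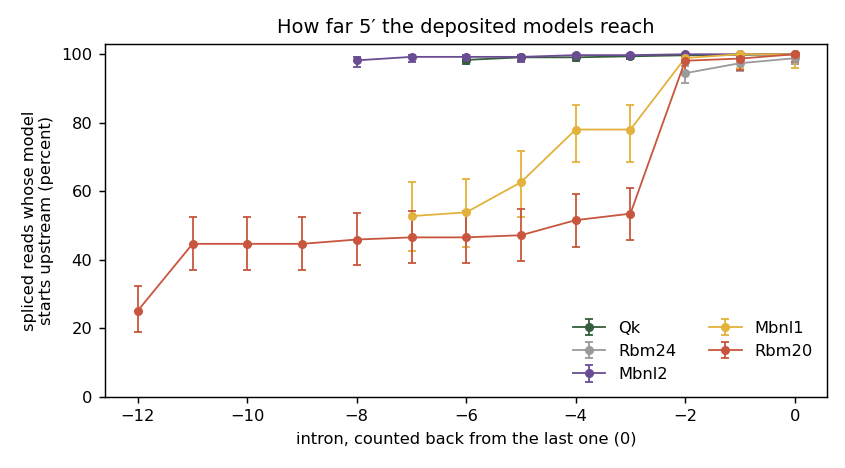
Share of spliced reads (percent, both libraries pooled, Wilson 95% intervals) whose deposited model starts upstream of each intron of the longest annotated coding form, counted back from the last intron at 0. Qk, Mbnl2 and Rbm24 stay near 100%, Mbnl1 declines in steps, and Rbm20 drops between the introns on either side of its 640-base exon.

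Mbnl2 and Mbnl1 encode zinc-finger proteins that drive adult splicing, and both carry short alternative exons behind their zinc fingers. The 54-base exon adds a stretch that favours the nucleus and is largely skipped in adult tissue, and the 36-base exon of Mbnl1 lies in a part of the protein that helps it bind itself. The exons are shown because they are short alternative exons of the pair that reads in these libraries included, with capitals at the bases that differ between the pair (mm10, plus strand; Mbnl1 54-base exon chr3:60614683-60614736, Mbnl2 54-base exon chr14:120395712-120395765, Mbnl1 95-base exon chr3:60622146-60622240, Mbnl2 95-base exon chr14:120404638-120404732, Mbnl1 36-base exon chr3:60621423-60621458).
Mbnl1 54-base exon: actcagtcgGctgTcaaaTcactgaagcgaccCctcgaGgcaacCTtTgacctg
Mbnl2 54-base exon: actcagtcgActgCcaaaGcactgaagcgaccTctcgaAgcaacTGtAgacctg
Mbnl1 95-base exon: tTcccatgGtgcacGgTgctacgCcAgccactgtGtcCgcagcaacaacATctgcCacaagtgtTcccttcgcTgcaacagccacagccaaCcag
Mbnl2 95-base exon: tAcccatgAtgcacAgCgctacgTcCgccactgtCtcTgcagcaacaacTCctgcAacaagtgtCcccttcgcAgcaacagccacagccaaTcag
Mbnl1 36-base exon: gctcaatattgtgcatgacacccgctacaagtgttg
The paralogous exons were identical at 46 of 54 and 81 of 95 bases, or 85.2% and 85.3%.

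A single unannotated structure made up most Mbnl2 reads. It had 7 exons, all with annotated splice sites and annotated introns, and skipped both the 54-base and the 95-base exon, with 175 of 200 spliced reads in replicate 1 and 165 of 193 in replicate 2, or 87.5% and 85.5%. The annotated Mbnl2-204, which has the 95-base exon and 355 codons, had 13 and 13 reads. As the leading structure is unannotated, annotated models alone gave the 95-base exon in 26 of 26 reads. The 54-base exon was included in 3 of 199 reads in replicate 1 and 5 of 190 in replicate 2 (1.51% and 2.63%). The 95-base exon was included in 13 of 199 and 15 of 191 (6.53% and 7.85%). Both libraries therefore skipped both exons in most Mbnl2 molecules.

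Mbnl1 was spread over many structures. Its 91 spliced reads fell on 41 intron chains, 14 of them seen in both libraries, and the leading chain, an incomplete model of 4 exons with the 95-base exon, had only 3 and 6 reads. The other Mbnl1 models with at least 5% of the spliced reads had 3, 5 and 8 exons, with 1 and 5, 4 and 4, and 6 and 0 reads. The 54-base exon was included in 2 of 29 reads in replicate 1 and 2 of 36 in replicate 2 (6.90% and 5.56%). The 36-base exon was included in 10 of 36 and 7 of 49 (27.8% and 14.3%). The 95-base exon was included in 26 of 36 and 26 of 49 (72.2% and 53.1%). An exon of 1049 bases in the 5′ part of the gene, partly coding, was included in 4 of 15 and 12 of 20 (26.7% and 60.0%). None of these 4 passed Fisher's exact test between the libraries, with or without adjustment over 2763 exons.

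On single reads the Mbnl1 choices occurred in most combinations. Of reads spanning both, 11 had the 36-base and the 95-base exon, 6 the 36-base exon alone, 41 the 95-base exon alone and 27 neither. Among reads spanning the 54-base and the 36-base exon, 49 had neither, 12 the 36-base exon alone, 3 the 54-base exon alone and 1 both.

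The 95-base exon was used far more in Mbnl1 than in Mbnl2. Mbnl1 included it at 72.2% in replicate 1, against 6.53% in Mbnl2 (adjusted p = 5.03e-16, Fisher's exact test on reads, over 12 tests). In replicate 2 it was 53.1% in Mbnl1, against 7.85% in Mbnl2 (adjusted p = 8.73e-11, Fisher's exact test). The 54-base exon did not pass the test between the paralogs in either library (adjusted p = 0.490 and 0.667, Fisher's exact test). This pairing asked for the same exon length and 1 flanking exon of matching length and was chosen after the values were seen. The stricter pairing, with both flanks, left out the Mbnl exons, whose flanking exons differ in length on 1 side, and called 0 of 4 tests, all on Rbfox exons, with no test below 0.05 before adjustment.

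Celf2 and Celf1 encode RNA-binding proteins that favour fetal patterns in heart. The Celf2 exon of 144 bases (chr2:6549832-6549975, minus strand), a multiple of 3 in length, was included in 27 of 33 reads in replicate 1 and 14 of 16 in replicate 2 (81.8% and 87.5%). Celf2 began mostly at 2 first exons. Of spliced reads outside incomplete models, 20 of 28 and 7 of 10 had the donor at 6721417 first, and 7 and 3 the donor at 6872356. Left out of these counts were incomplete models of 13 and 12 exons, with 3 and 2 reads each, that start at 6721615 as Celf2-202 does. The leading model of Celf2 was the annotated Celf2-202, with 15 of 34 and 3 of 16 spliced reads. The other Celf2 models with at least 5% of the spliced reads were new combinations or incomplete, with at most 4 reads in each library. They differed from Celf2-202 in the length of an exon, in skipping of the 144-base exon or in an added upstream first exon of 242 bases. In models with that added exon, an internal exon of 197 bases lies within the region of the 199-base first exon of Celf2-202. With annotated models only, Celf2 had 16 reads in replicate 1 and 3 in replicate 2 (log2 ratio 1.95, unadjusted p = 0.0104, adjusted p = 0.350, exact binomial test), against a log2 ratio of 0.62 with all models. In Celf1 the exon of 152 bases near the 5′ end, partly coding, was in 7 of 12 reads in replicate 1 and 1 of 9 in replicate 2, and an untranslated exon of 53 bases was in 1 of 12 and 1 of 9. With fewer than 10 reads in replicate 2, neither Celf1 exon was tested. The leading Celf1 model was the annotated Celf1-206, which lacks the 152-base exon, with 3 and 4 reads. Celf1-201, which has it, had 4 and 0 reads, and a new combination that lacks it had 1 and 3.

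Rbfox2 and Rbfox1 share an exon of 43 bases near the C terminus, favoured in muscle, and have an alternative of 40 bases favoured in brain. These exons of Rbfox2 (chr15:77091812-77091854 and chr15:77094451-77094490, mm10, minus strand) are shown because Rbfox2 reads chose between them. The 43-base exon of Rbfox1 (chr16:7369801-7369843, plus strand) is shown because Rbfox1 reads kept or skipped it. Capitals mark bases that differ between the 43-base exons.
Rbfox2 43-base exon: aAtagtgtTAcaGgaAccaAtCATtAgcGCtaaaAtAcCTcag
Rbfox1 43-base exon: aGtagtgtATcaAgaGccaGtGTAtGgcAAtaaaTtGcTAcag
Rbfox2 40-base exon: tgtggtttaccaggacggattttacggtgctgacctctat
The 43-base exons were identical at 27 of 43 bases (62.8%).

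In Rbfox2 the 43-base exon was included in 10 of 13 reads in replicate 1 and 6 of 10 in replicate 2 (76.9% and 60.0%), and the 40-base exon in 2 of 13 and 3 of 10 (15.4% and 30.0%). No read held both: 16 had the 43-base exon alone, 5 the 40-base exon alone and 2 neither. With annotated models only, 5 reads were left, of which 1 held the 43-base exon and 4 the 40-base exon, so the values over all models rest mostly on unannotated structures. The annotated Rbfox2-204, with the 40-base exon, had 1 and 2 reads, and 2 unannotated models with the 43-base exon had 2 and 1 reads and 2 and 0. An unannotated exon of 54 bases (chr15:77203362-77203415) in the 5′ part of the gene was in 0 of 5 reads in replicate 1 and 1 of 5 in replicate 2. The 93-base exon, part of the RNA-recognition motif, was in 13 of 13 reads in replicate 1 and 7 of 10 in replicate 2. Its unadjusted p of 0.0678 by Fisher's exact test was the smallest among the exons of the 10 genes that were tested between the libraries. All 3 reads that skipped it held the 43-base exon. Rbfox1 had 7 and 2 spliced reads, with the 43-base exon in 5 of 7 and 1 of 2. An unannotated exon of 53 bases downstream of it was in 4 of 7 reads in replicate 1 and 1 of 2 in replicate 2, and reads with it joined annotated exons on both sides. The annotated Rbfox1-203, with the 43-base exon, had 2 and 0 reads, and every other spliced Rbfox1 model had at most 1 read in each library.

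Ptbp1 encodes the polypyrimidine tract-binding protein, and skipping of its 34-base exon shifts the reading frame and lowers the protein. The exon (chr10:79862014-79862047, mm10, plus strand) is shown with the 78-base exon (chr10:79860117-79860194), whose skipping shortens a linker between RNA-binding domains.
Ptbp1 34-base exon: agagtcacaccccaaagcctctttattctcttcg
Ptbp1 78-base exon: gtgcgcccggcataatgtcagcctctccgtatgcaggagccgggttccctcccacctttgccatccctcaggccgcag
The 34-base exon was included in 11 of 14 reads in replicate 1 and 6 of 7 in replicate 2 (78.6% and 85.7%). The 78-base exon was included in 6 of 15 and 4 of 7 (40.0% and 57.1%). Most Ptbp1 molecules thus kept the 34-base exon, while the 78-base exon was close to an even choice within wide intervals. On single reads, 7 held both, 10 the 34-base exon alone, 3 the 78-base exon alone and 1 neither. The annotated Ptbp1-206, which skips the 78-base exon, had 7 and 3 reads, and Ptbp1-216, which holds both exons, had 4 and 2. A new combination that skips the 34-base exon had 2 and 0 reads.

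Across the 10 genes, 100 of 145 internal exons had at least 10 informative reads over both libraries, of which 75 were included in more than 95% of reads, 10 in fewer than 5% and 15 in between. Reads that used another splice site of the same exon counted as neither inclusion nor skipping. A choice between splice sites is therefore not seen in these counts. The 276-base and 300-base forms of the Qk exon both stood above 95%, at 525 of 526 and 130 of 131 reads. The 15 exons in between lay in 7 of the genes, and 6 had a length that is a multiple of 3, against 46.3% of such exons in all genes. Exons in between made up 15% of the exons with enough reads in these genes and 7.13% of the 77327 such exons in all genes. Of 10 tested between the libraries, 0 were called by Fisher's exact test with an adjusted p below 0.05 and a difference of at least 10 points, against 0.0% of all exons tested. At an unadjusted p below 0.05 there were 0 of the 10, against 2.82% of all. The intervals of the Mbnl1 36-base and 95-base exons overlapped between the libraries.

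**Figure D5:**
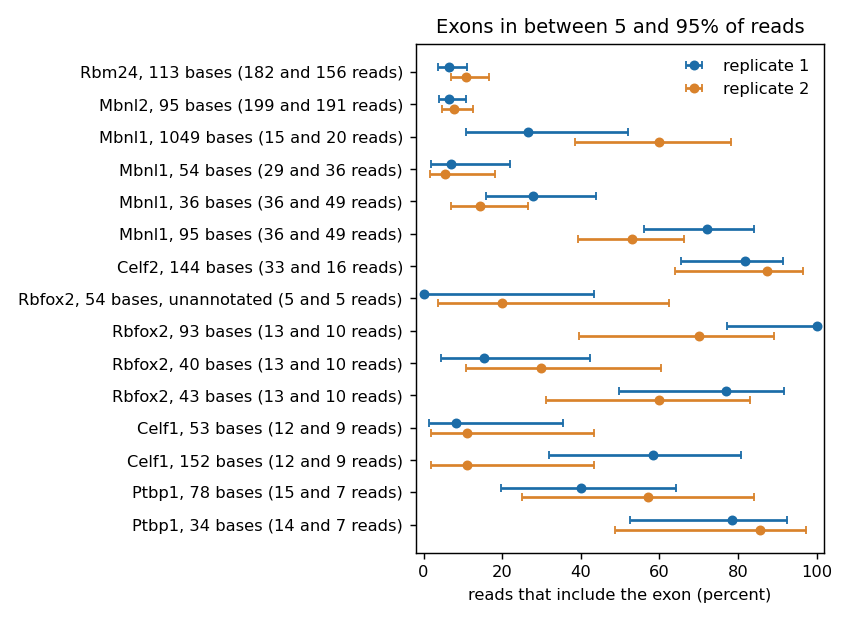
Inclusion (percent of informative reads, Wilson 95% intervals) of the 15 exons between 5% and 95%, in replicate 1 and replicate 2, with the reads of each library in the labels. The Rbm24 113-base and Mbnl2 95-base exons sit near the low end in both libraries, the Celf2 144-base and Ptbp1 34-base exons near the high end, and the Mbnl1 1049-base and Celf1 152-base exons lie farthest apart between the libraries.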

How the data were processed

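The authors deposited counts of long reads per transcript model, 1 library per table, as whole numbers with no normalization, quantified against GENCODE M21 on mm10 per the file headers and the deposited text. The exon number, length and coordinates of each model came from the same files. For the aligner and read filters, nothing is stated: not given in the sources used here. Exon numbers and lengths matched between table and annotation for each of the 85327 and 82087 models.

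Reads were summed over all models of a gene, without spike-ins, and divided by the annotated-gene reads to give CPM. With annotated models only, the reads on annotated models were the divisor instead. Each read was counted as 1 molecule, so intervals (Wilson or exact, 95%) and the floor of 3 reads cover counting error only. The libraries were compared by a two-sided exact binomial test for genes with at least 10 reads, with log2 ratios after adding 0.5 reads. An exon was included where a model held it as an internal exon with both edges, and skipped where an intron spanned it. Inclusion needed 10 reads in each library and 5% to 95% overall to be tested, and leading intron chains needed 20 spliced reads and a share below 95%. Exons, chains and paralog shares were compared with Fisher's exact test, all with Benjamini-Hochberg adjustment. A contrast between 2 libraries has 1 library in each arm and leaves no residual degrees of freedom for the quasi-likelihood test of edgeR, so edgeR's exact test with preset variation (0.1 and 0.2), edgeR TMM factors and DESeq2 size factors were alternatives, beside read minimums, annotated models and spliced models.

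The genes, the lists of other regulators and target genes, and the tests were chosen with earlier results of these data known. All 10 genes were named, with models of at least 5% of spliced reads, exons between 5% and 95%, relatives of the 10 genes, the 5 highest other regulators, and others only where called. The Mbnl2 54-base exon, the Rbfox1 exons and first donors fall outside that rule and were chosen after their values were seen. On simulated counts for 9288 tested genes, the gene test at the adjusted p recovered 57 of 100 genes changed by 2-fold and 99 of 100 changed by 4-fold, and called 7 of 9088 left the same. The simulated counts varied by counting error only. The changed genes were drawn only from genes with more expected reads per library than Celf1, Ptbp1 and Rbfox1 had. Recovery at the levels of these lower genes was not measured. Exon sequences were cut out of the GENCODE M21 transcripts (GRCm38, the assembly of mm10). Software was R 4.3.3, edgeR 4.0.16, DESeq2 1.42.0, Python 3.11.15, scipy 1.17.1, pandas 2.3.3 and matplotlib 3.10.9.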

Additional observations from a re-analysis of the deposited data

Results flagged for a closer look

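Reads outside the annotated genes were found on the strand opposite to 9 of the 10 genes, above the 3 reads that a count of 0 allows, in both libraries. These reads were on unannotated models and entered none of the values above. Over Qk there were 271 reads in replicate 1 and 205 in replicate 2, the most of the 9 genes, and the largest model held 222 and 148 of them. Over Mbnl1 there were 53 and 33, of which 30 and 18 were spliced, and over Celf1 there were 50 and 28, more than the 23 and 17 reads of Celf1 itself. Over Celf2 there were 24 and 12 reads, over Mbnl2 14 and 22, over Rbm20 14 and 14, over Rbm24 9 and 10, over Rbfox2 6 and 14, and over Rbfox1 4 and 8. Over the whole genome, unannotated antisense genes took 3.31% and 3.41% of the reads off the spike-ins.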

How the results depend on the processing

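No gene, pair, leading chain or exon of the 10 genes was called between the libraries under any scaling, minimum, model choice or preset variation that was run, and none of the other regulators or target genes was called with the 2-fold minimum. Shares called over all genes are not given for these alternatives, and with annotated models only 7 of the 10 genes could be tested. The lack of calls therefore does not measure how alike the libraries were. With annotated models only, the mean summed level of the 10 genes was 462 CPM, against 1301 CPM with all models. The divisors differ, being the reads on annotated models for the first and the annotated-gene reads for the second. In reads, the 10 genes went from 1050 to 313 in replicate 1 and from 976 to 238 in replicate 2. The exons between 5% and 95% numbered 4 with annotated models only, against 15. With annotated models only, the Celf2 144-base and Ptbp1 34-base exons stood at 94.7% and 94.1%, the log2 ratios of Qk and Rbm24 turned to 0.039 and 0.025, and no exon could be tested. The cause was not tested. Pairing paralogous exons by 1 flank, chosen after seeing the data, called 2 tests, against 0 by both flanks. Without replicate 1 or without replicate 2, the summed level ran between 1222 and 1379 CPM, the share on annotated models between 24.4% and 29.8%, and the exons between 5% and 95% between 12 and 17. edgeR TMM factors and DESeq2 size factors moved every log2 ratio by 0.04 each. No paired analysis was possible because the labels gave 1 group. Depth limited the lower genes: Celf1, Celf2, Rbfox1, Rbfox2 and Ptbp1 had between 7 and 36 reads per library, so their structures rest on few molecules, and 5′ ends were taken as deposited.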
